A study of Mus musculus with 20 samples.

Results

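Frontal cortex of mice homozygous for the TDP-43 Q331K allele was compared with that of heterozygotes, to describe what the second changed allele added. The comparison used 14 of the 20 RNA sequencing libraries of the study, which were all those labelled Q331K/Q331K (8 homozygous) or Q331K/+ (6 heterozygous); the +/+ libraries were left out. Both groups were C57BL/6 mice aged 5 months, and both carried the Q331K knock-in in their own Tardbp gene, so no library without the changed allele entered the comparison, except in 1 of the 25 alternative fits, which used all 20 libraries. The homozygotes had 2 changed copies and no normal copy of Tardbp, and the heterozygotes had 1 changed and 1 normal copy. Sequencing used polyadenylated RNA of whole frozen tissue. A lower level of a cell type's genes in such bulk samples cannot tell fewer cells from less RNA per cell. The labels did not say whether the libraries of a group came from separate animals, so the spread between them may be in part technical.

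TDP-43, encoded by Tardbp, is a nuclear protein that binds RNA, represses cryptic exons, sustains long neuronal transcripts and limits its own level through the end of its own messenger RNA. Changes in its glycine-rich C-terminal part cause familial amyotrophic lateral sclerosis (ALS) and frontotemporal dementia (FTD), and Q331K, which replaces a glutamine by a lysine, lies in that part. Frontal cortex is a main site of frontotemporal dementia, and holds excitatory projection neurons, GABAergic interneurons such as the fast-spiking parvalbumin cells, and glia.

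Gene positions here and below are those given with the deposited counts, whose processing notes name the build GRCm38. CPM is the count scaled to the size of its library, and levels are given as lowest, median and highest. Tardbp (4:148612382-148627019, minus strand) was at 216, 234 and 237 CPM in heterozygotes and at 235, 245 and 264 CPM in homozygotes. All 8 homozygous libraries lay above the heterozygous median, but the ranges overlapped. The means were 231 ± 7.72 CPM (SD, n = 6) and 247 ± 10.5 CPM (SD, n = 8). The log2 difference was 0.09 (SE 0.032). It did not pass the transcriptome-wide test (edgeR quasi-likelihood, adjusted p = 0.327), and an exact two-sided permutation test of this gene alone over 3003 splits gave p = 0.00533, where the smallest p it allows is 0.000333. The total of Tardbp transcripts does not tell the 2 alleles apart, so it cannot check the labels. Tardbp shares bases with Masp2 on the other strand, and how the counting treated strand was not given in the sources used here.

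Library totals lay between 61282647 and 111440766 counts for heterozygotes and between 69312426 and 105412832 counts for homozygotes, and mitochondrial transcripts took 6.51% to 10.5% and 6.26% to 9.31% of them. Genes of neighbouring brain regions set several libraries apart, as the plot of list scores by library shows; a list score is the mean over a list's genes of each gene's log2 CPM, standardised over the 14 libraries. Homozygous replicates 2, 5 and 8 had olfactory bulb scores of 0.92, 1.42 and 1.62, where no heterozygous library was above -0.27. Homozygous replicates 1, 2 and 4 and heterozygous replicate 2 had ependymal scores between 0.61 and 1.80. Heterozygous replicate 1 had a striatal score of 2.56, where the next library was at 0.49. No marker of these lists found in the deposited counts, tested or not, was at 0 in every library. Genes of frontal cortex identity gave a summed level of 6634 to 7383 CPM in heterozygotes and 6368 to 6914 CPM in homozygotes.

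**Figure D1:**
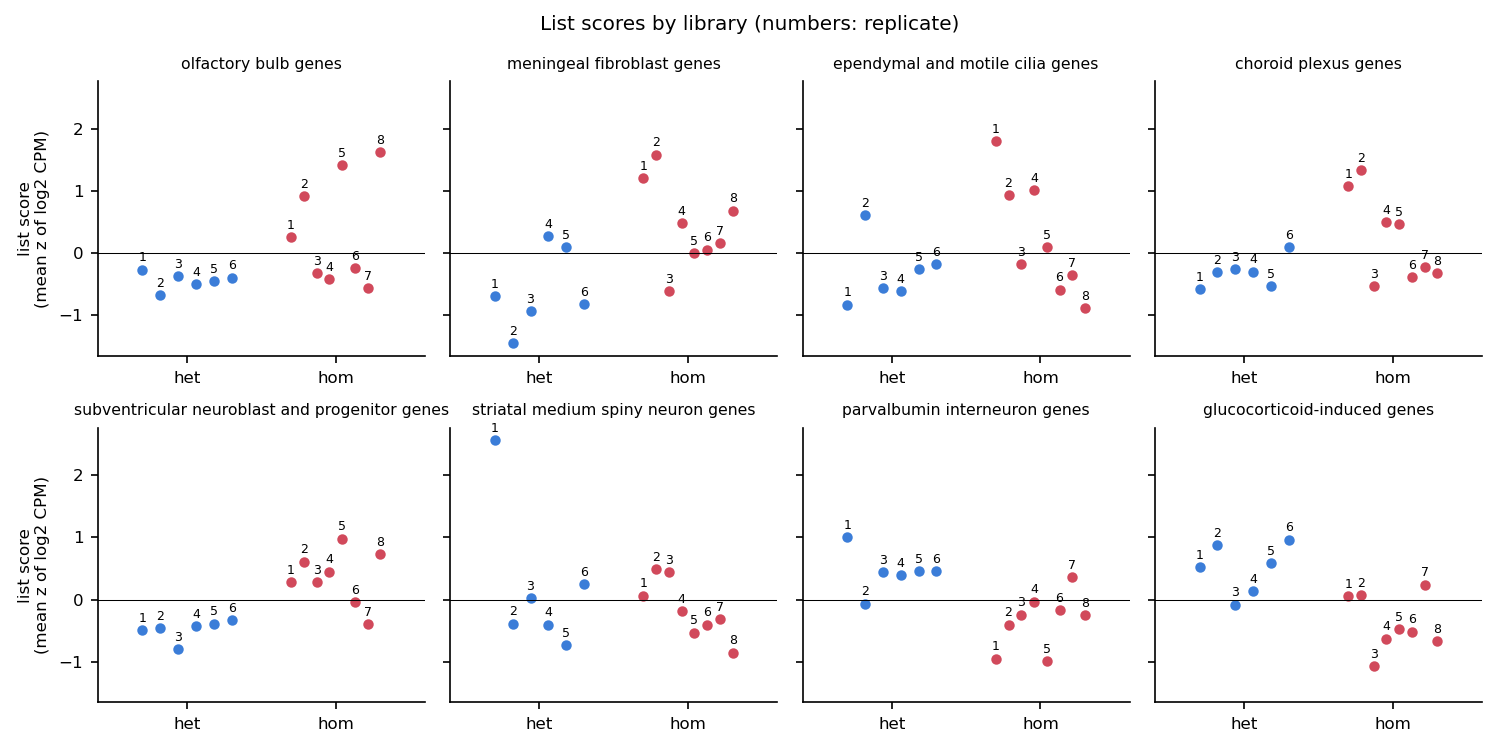
List scores (mean of standardised log2 CPM, vertical axis) of 8 gene lists in each of the 6 heterozygous (het, blue) and 8 homozygous (hom, red) libraries, with the replicate number above each point. Olfactory bulb scores above 0.5 occurred in homozygous replicates 2, 5 and 8 only, and the striatal score of heterozygous replicate 1 reached 2.56, while the parvalbumin and glucocorticoid scores lay mostly lower in homozygotes with overlapping ranges.

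The second changed allele went with few and small changes. Of 16515 genes tested, 16 (0.0969%) passed an adjusted p of 0.05 (edgeR quasi-likelihood), 4 of them raised (0.0242%) and 12 lowered (0.0727%) in homozygotes. Among the 16 the absolute log2 difference had a median of 0.26 and ran from 0.16 to 0.94, and 13 of the 16 had homozygous and heterozygous ranges that did not overlap, which held for 49 genes in all (0.297%), 15 of them higher (0.0908%) and 34 lower (0.206%) in homozygotes. At an unadjusted p under 0.05 there were 1699 genes (10.3%), 739 higher (4.47%) and 960 lower (5.81%). The median log2 difference of all genes tested was -0.00045. The lowered genes included 3 parvalbumin interneuron genes, enzymes of glycogen, fat and valine use, and a tRNA-modifying enzyme, and the raised genes included a growth factor and a transcription factor of immature neurons.

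The number of calls moved with single libraries. Leaving out one library at a time gave 0 to 7 raised and 4 to 19 lowered genes: 26 calls in all without heterozygous replicate 4 or homozygous replicate 2, 4 without homozygous replicate 5 or 8, 5 without heterozygous replicate 2, 5 or 6 or homozygous replicate 1, 6 without heterozygous replicate 3 and 7 without heterozygous replicate 1 or homozygous replicate 6. Without the 3 libraries of high olfactory bulb score 0 raised and 2 lowered genes were called, and without the 4 of high ependymal score 0 and 9. Of the 16 genes, 4 were called in each of the 14 fits with 1 library left out and the other 12 in 3 to 7 of them; any library but homozygous replicate 2, left out, ended at least 1 call. The direction of all 16 genes was the same in all 25 alternatives.

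**Figure D2:**
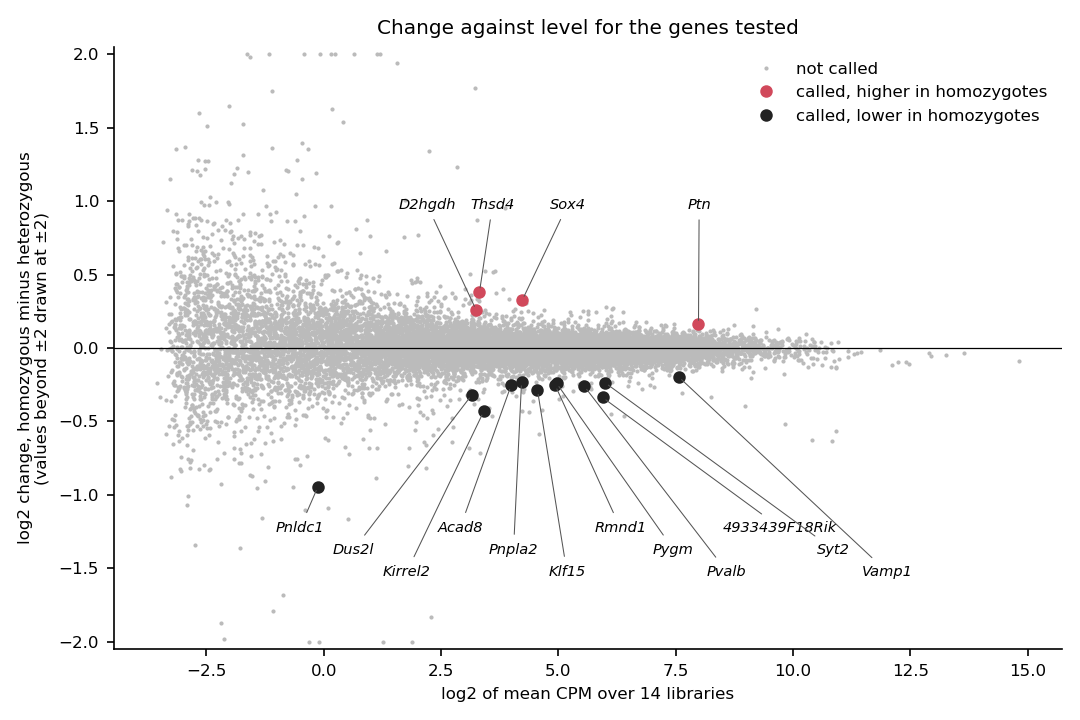
Log2 change (homozygous minus heterozygous, vertical axis) against the log2 of mean CPM over the 14 libraries (horizontal axis) for each gene tested; grey points were not called, red points are the 4 raised and black points the 12 lowered genes. Most called genes lay within 0.5 of zero, and Pnldc1, the least abundant of them, had the largest difference at -0.94.

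4 lowered genes kept their call whichever single library was left out, and they belong to unrelated processes. 4933439F18Rik (11:60417145-60450927), which GENCODE names Gid4, encodes the substrate receptor of the GID/CTLH ubiquitin ligase. Its heterozygous libraries were at 65.9, 70.1 and 73.3 CPM and its homozygous libraries at 52.0, 55.3 and 57.9 CPM (lowest, median, highest). The groups were clearly apart, with a log2 difference of -0.34 (SE 0.033, edgeR adjusted p = 3.75e-05), and the call held in all 25 alternatives (-0.35 to -0.30). The gene shares bases with Gm12268 on its own strand and with Atpaf2 and Gm12267 on the other, and whether the counting used strand was not given in the sources used here.

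Dus2l (8:105991337-106053840), or Dus2, makes dihydrouridine in the D loop of tRNAs. It was at 9.51, 10.1 and 10.4 CPM in heterozygotes and at 7.42, 7.93 and 9.08 CPM in homozygotes, again without overlap (log2 -0.32, SE 0.049, edgeR adjusted p = 0.0122). Among the 4 dihydrouridine synthases tested it was the only one called; Dus1l, Dus3l and Dus4l had log2 differences of -0.04, -0.04 and 0.01. Dus2l shares bases with Dpep2, Dpep2nb and Ddx28 on the other strand. Without the 3 libraries of high olfactory bulb score its difference was -0.31 (edgeR adjusted p = 0.115).

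Kirrel2 (7:30447534-30457690) encodes an immunoglobulin-type adhesion protein of the nephrin family that sorts olfactory axons and is also made in kidney and pancreas. Its levels were 11.7, 12.3 and 13.8 CPM in heterozygotes and 8.28, 8.99 and 11.1 CPM in homozygotes. The groups did not overlap, and the log2 difference of -0.43 (SE 0.067, edgeR adjusted p = 0.0122) was the second in size among the called genes. Of its relatives, Nphs1 was at -0.22 and Kirrel3 at 0.02, and neither was called. Without the 3 libraries of high olfactory bulb score the Kirrel2 difference was -0.42 (edgeR adjusted p = 0.115).

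Pnldc1 (17:12888902-12910000) encodes an exonuclease known for trimming the 3′ ends of piRNAs in germ cells. It was scarce here, at 1.10, 1.31 and 1.39 CPM in heterozygotes and 0.426, 0.661 and 0.961 CPM in homozygotes. The highest homozygote stayed below the lowest heterozygote, and the mean in homozygotes was 51.9% of that in heterozygotes (log2 -0.94, SE 0.144, edgeR adjusted p = 0.0122). It was called without the 3 libraries of high olfactory bulb score (log2 -1.06, edgeR adjusted p = 0.0167), and not without the 4 of high ependymal score (log2 -0.90, edgeR adjusted p = 0.0754) or with tissue scores as covariates (log2 -1.05, edgeR adjusted p = 0.0878). Pnldc1 shares bases with AL589878.1 on the other strand.

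**Figure D3:**
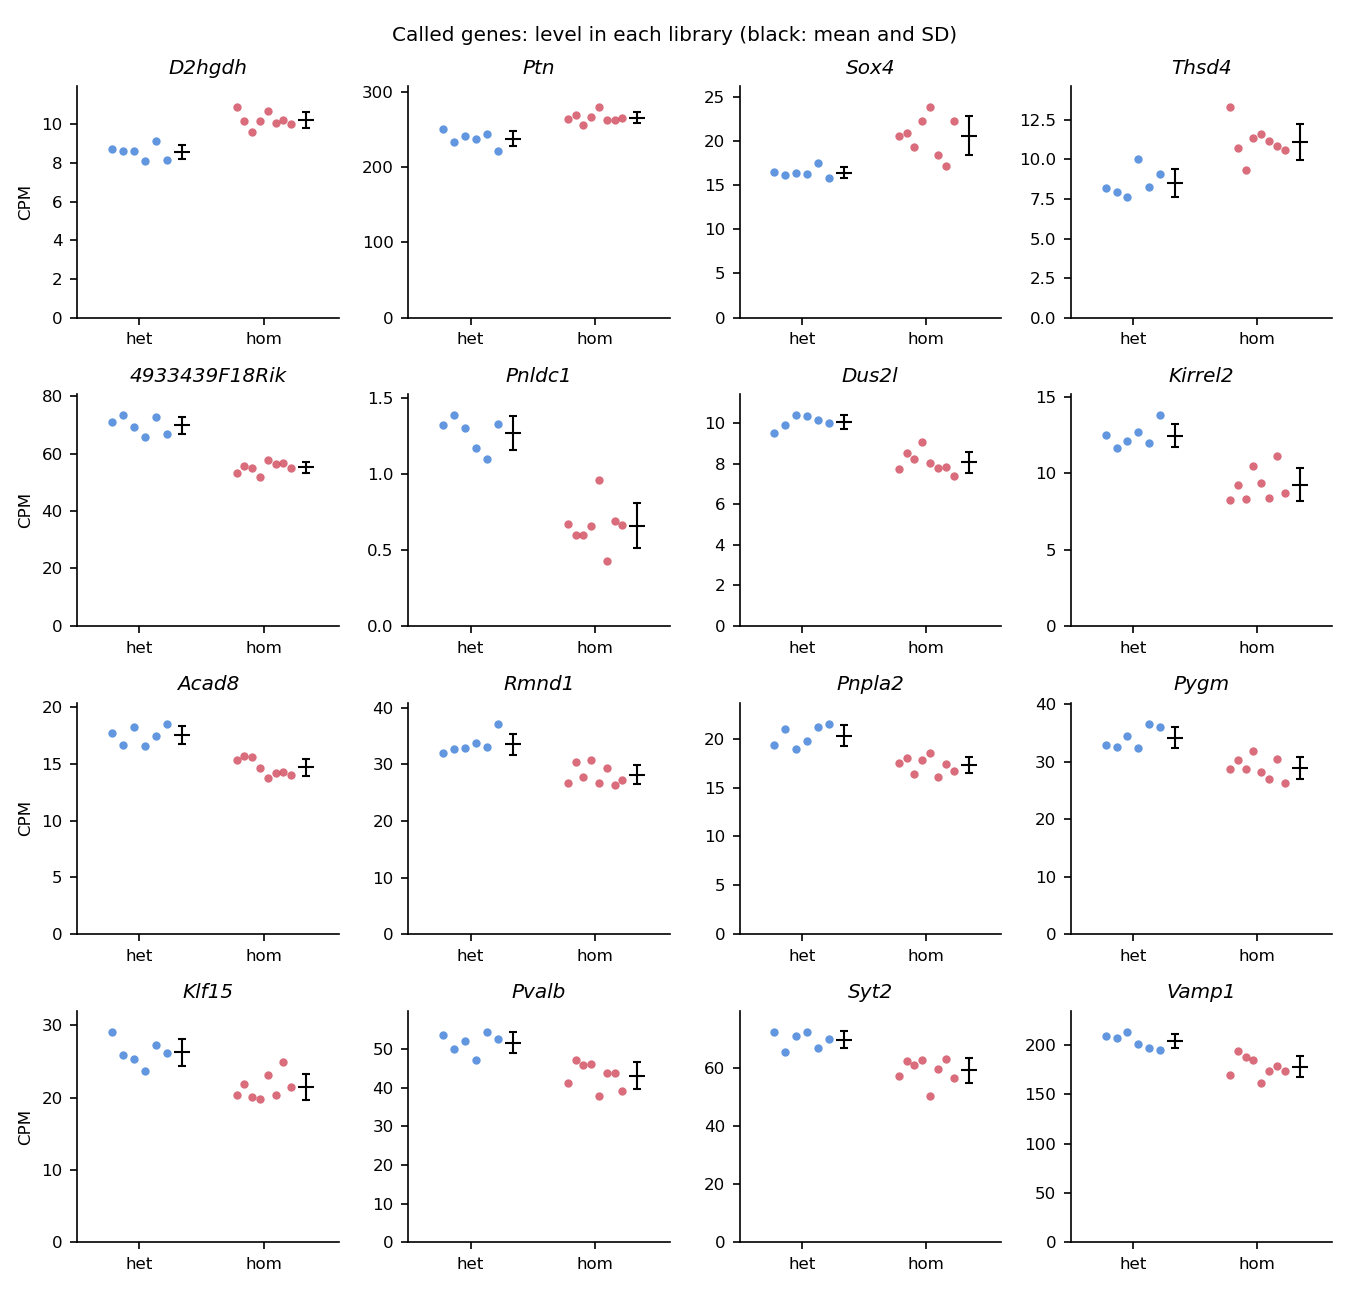
CPM (vertical axes, from 0) of the 16 called genes in each of the 6 heterozygous (het, blue) and 8 homozygous (hom, red) libraries, with the mean and SD in black; the first row holds the 4 raised genes. Sox4, Thsd4 and Klf15 have overlapping ranges, and the other 13 do not.

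3 of the 12 lowered genes, Pvalb, Syt2 and Vamp1, belong to a list of 14 parvalbumin interneuron genes. Pvalb (15:78191114-78206400), the calcium buffer that defines these cells, was at 47.2, 52.3 and 54.5 CPM in heterozygotes and at 37.9, 43.9 and 47.1 CPM in homozygotes. The ranges met without overlapping, and the log2 difference was -0.26 (SE 0.048). Syt2 (1:134709300-134753149), the fast calcium sensor of transmitter release in these cells, was at 65.5, 70.4 and 72.5 CPM and at 50.3, 60.4 and 63.2 CPM. It too separated the groups, with a log2 difference of -0.24 (SE 0.045).

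Vamp1 (6:125215551-125244543), the vesicle SNARE of fast-spiking terminals, was at 195, 204 and 213 CPM in heterozygotes and at 162, 176 and 194 CPM in homozygotes. The ranges did not overlap (log2 -0.20, SE 0.037), and the edgeR adjusted p was 0.0403 for each of Pvalb, Syt2 and Vamp1. Vamp1 shares bases with Tapbpl, Cd27 and Mir8113 on the other strand. Homozygous replicate 5 was the lowest library for all 3 genes. Across the alternatives the log2 difference ran from -0.30 to -0.22 for Pvalb, from -0.28 to -0.20 for Syt2 and from -0.22 to -0.18 for Vamp1, with edgeR adjusted p up to 0.248, 0.268 and 0.248. Without the 3 libraries of high olfactory bulb score the differences were -0.22, -0.20 and -0.19 (edgeR adjusted p = 0.115 for each).

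Of 14 parvalbumin interneuron genes, 12 had negative differences, 3 were called lowered and 9 reached an unadjusted p under 0.05 downwards. All genes tested gave 0.0727% called lowered and 5.81% lower at that p. The list was chosen with earlier results of these data known, so these counts describe it and are not independent support. The median log2 difference of the list was -0.12, against -0.00045 for all genes. It was -0.13 without the libraries of high olfactory bulb score, -0.14 without those of high ependymal score and ran from -0.15 to -0.09 over the 25 alternatives. Cox6a2, the cytochrome oxidase subunit of muscle and parvalbumin cells, was at 6.77, 7.22 and 8.74 CPM in heterozygotes and 4.64, 5.77 and 6.66 CPM in homozygotes. Its groups did not overlap, but it was not called (log2 -0.35, SE 0.076, edgeR adjusted p = 0.0873). The 2 members above 0 were Tmem132c (0.08) and Pthlh (0.18), named after their values were seen. The list score lay between -0.07 and 1.00 in heterozygotes and between -0.99 and 0.36 in homozygotes, so the ranges overlapped. Heterozygous replicate 1, the library of high striatal score, had the score of 1.00, and the next heterozygous score was 0.46. Scn4b, lower at an unadjusted p under 0.05 in the edgeR fit, is also on the striatal list.

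Genes of other interneurons were divided in sign, with 9 positive and 10 negative differences. Of 19 tested none was called and the median was -0.0004. At an unadjusted p under 0.05, 4 were higher and 2 lower (4.47% and 5.81% of all genes). Lhx6, a transcription factor shared by parvalbumin and somatostatin cells, had a log2 difference of -0.13 and Htr3a, the serotonin receptor of another interneuron class, 0.23. Sncg was at 0.32, and Calb2, which is also on the olfactory bulb list, at 0.95. Htr3a separated the groups, at 5.65 to 6.63 CPM in heterozygotes and 6.66 to 7.71 CPM in homozygotes, and was not called (edgeR adjusted p = 0.116).

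Perineuronal nets are the matrix coats of parvalbumin cells. Of 10 net genes none was called, 5 were positive and 5 negative, and the median was -0.0080. Acan, the net proteoglycan aggrecan, had a log2 difference of -0.24 (SE 0.084). Among 31 voltage-gated potassium channel genes none was called and the median was 0.03. At an unadjusted p under 0.05, 9 were lower and 2 higher (5.81% and 4.47% of all genes). Kcng4, a silent subunit of delayed rectifier channels, was at -0.35, Kcnab3 at -0.18, Kcnh3 at -0.13 and Kcnab2 at -0.13. Kcnab2, a cytosolic channel subunit, separated the groups at 427 to 459 CPM and 391 to 423 CPM, with an edgeR adjusted p of 0.109.

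Of 41 genes of synaptic vesicle fusion, Syt2 and Vamp1 were the only ones called, and the list's median was 0.02. The complexins Cplx3 and Cplx2, which clamp fusion, had log2 differences of -0.23 and -0.11.

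**Figure D4:**
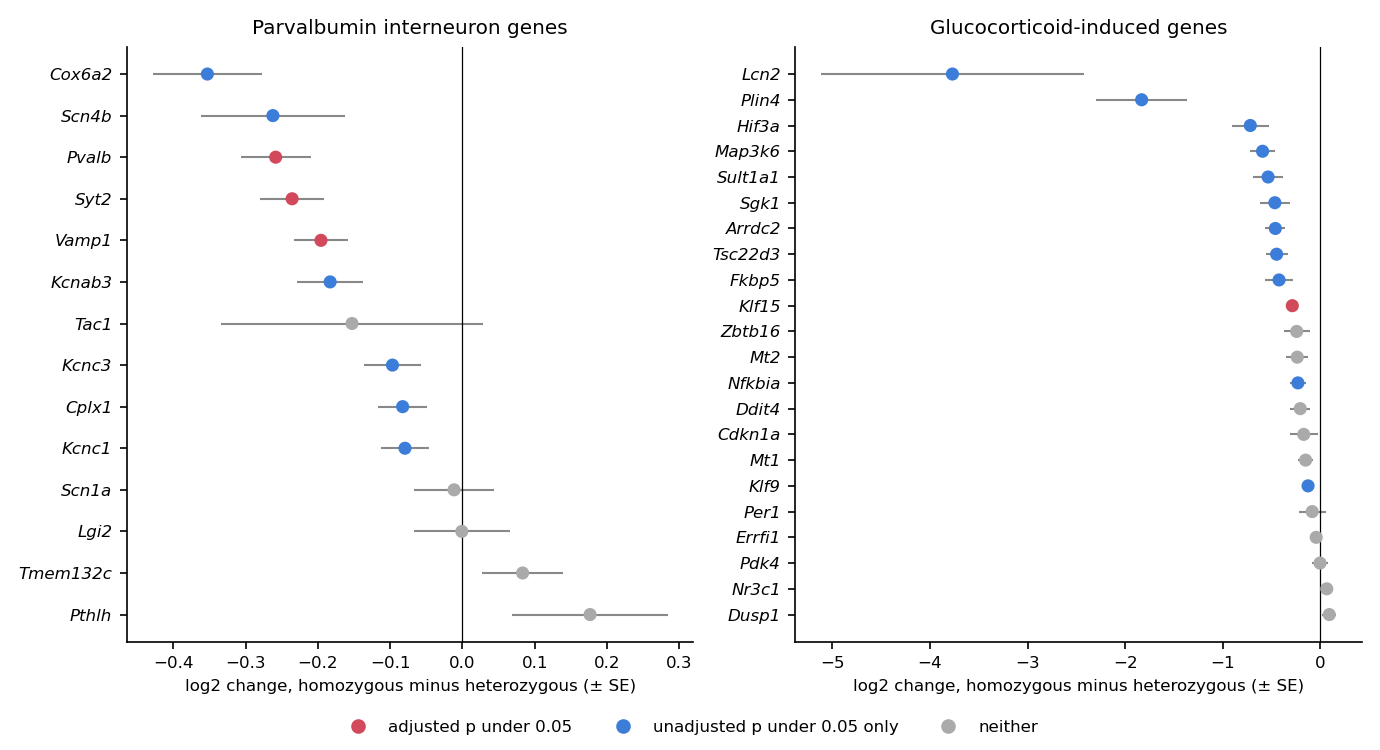
Log2 change (homozygous minus heterozygous, horizontal axis) with its SE for each of 14 parvalbumin interneuron genes (left) and 22 glucocorticoid-induced genes (right); red points have an adjusted p under 0.05, blue points an unadjusted p under 0.05 only, grey points neither. 12 of 14 and 20 of 22 differences are negative, and the 2 horizontal scales differ.

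2 of the lowered genes, Pygm and Pnpla2, encode enzymes that release stored fuel. Pygm (19:6384399-6398459), the glycogen phosphorylase of muscle and astrocytes, was at 32.4, 33.6 and 36.6 CPM in heterozygotes and at 26.2, 28.7 and 31.9 CPM in homozygotes. Its groups did not overlap, and it fell by 0.24 on the log2 scale (SE 0.045). Pnpla2 (7:141455198-141460743), the lipase that starts triglyceride breakdown, was at 19.0, 20.3 and 21.6 CPM and at 16.1, 17.5 and 18.5 CPM. It fell by 0.23 without overlap (SE 0.043; edgeR adjusted p = 0.0403 for both genes).

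Klf15 (6:90462576-90475238) encodes a transcription factor that glucocorticoids induce and that turns on amino acid and lipid use in muscle and liver. It was at 23.7, 26.0 and 29.1 CPM in heterozygotes and at 19.8, 20.9 and 24.9 CPM in homozygotes. The ranges overlapped, since homozygous replicate 7 (24.9 CPM) lay above heterozygous replicate 4 (23.7 CPM), and the log2 difference was -0.29 (SE 0.054, edgeR adjusted p = 0.0403). Leaving out the libraries of high olfactory bulb score, the differences of Pygm, Pnpla2 and Klf15 were -0.22, -0.25 and -0.31 (edgeR adjusted p = 0.218, 0.115 and 0.135).

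A list of 27 genes of glycogen and triglyceride breakdown, drawn up after these values were seen, held 2 called genes (Pygm and Pnpla2) with a median of -0.05. 7 members were lower and 1 was higher at an unadjusted p under 0.05 (5.81% and 4.47% of all genes). Lipe, the hormone-sensitive lipase, was at -0.19. Plin4, a lipid droplet coat protein, ranged over 2.62 to 23.6 CPM in heterozygotes and 1.40 to 3.57 CPM in homozygotes (log2 -1.83, SE 0.469, edgeR adjusted p = 0.224).

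Of 22 genes that glucocorticoids induce, a list also drawn up after these values were seen, 20 had negative differences. Klf15 was the only one called, where 0.0727% of all genes were called lowered. At an unadjusted p under 0.05, 12 were lower and 0 higher (5.81% and 4.47% of all genes), and the median was -0.24. Tsc22d3, the glucocorticoid-induced leucine zipper protein, was at 70.4, 84.7 and 92.0 CPM in heterozygotes and at 48.0, 57.9 and 77.5 CPM in homozygotes. Its ranges overlapped (log2 -0.45, SE 0.114, edgeR adjusted p = 0.215). The kinase gene Map3k6 was at -0.59 and the arrestin-domain gene Arrdc2 at -0.46 (edgeR adjusted p = 0.109 and 0.124). The list's median stayed between -0.36 and -0.21 in the 25 alternatives, and its score lay between -0.08 and 0.97 in heterozygotes and between -1.07 and 0.24 in homozygotes. The labels did not give the time of day at which tissue was taken. Among 17 clock genes none was called, 13 were negative and the median was -0.07; the clock output genes Per3 and Tef were at -0.14 and -0.12.

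The promoters of the called genes were searched for 4 motifs, on both strands, in the 250 bases before 1 RefSeq start (GRCm38.p6) per gene. The start nearest to the deposited gene start was used, and 15 of the 16 called genes had one. Pvalb, Thsd4 and Syt2 had 2 starts each, of which only the nearest was searched. The searched start lay 20141 bases from the deposited one for Dus2l, 11011 for Thsd4 and 1182 for Ptn. The glucocorticoid response element (half-sites GNACA and TGTNC, 3 bases apart), the ERR-type element TNAAGGTCA and the TATAAA box were in none of the 15 promoters searched. They were in 0.387%, 1.14% and 12.4% of 32851 promoters. The E-box CACGTG is the same on both strands and is read by clock and MYC-family factors. It was in 2 of the 15 promoters searched, Rmnd1 and Klf15, each with 2 copies. At least 1 copy was in 6.02% of all promoters, which is the share to read beside 2 of 15. At least 2 copies were in 0.429%, a cut that equals the number seen in Rmnd1 and Klf15. Neither share was tested. The 2 promoters are printed for these boxes, in capitals, each in its gene's direction: chr10:4432389-4432638 on the minus strand for Rmnd1 and chr6:90462326-90462575 on the plus strand for Klf15. A match describes these letters and does not show that a factor binds there.

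Rmnd1 promoter: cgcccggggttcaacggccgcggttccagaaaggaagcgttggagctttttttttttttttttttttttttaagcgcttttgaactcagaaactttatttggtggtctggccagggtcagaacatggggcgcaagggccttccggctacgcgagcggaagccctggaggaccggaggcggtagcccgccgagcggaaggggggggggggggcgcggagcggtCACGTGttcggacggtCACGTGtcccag

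Klf15 promoter: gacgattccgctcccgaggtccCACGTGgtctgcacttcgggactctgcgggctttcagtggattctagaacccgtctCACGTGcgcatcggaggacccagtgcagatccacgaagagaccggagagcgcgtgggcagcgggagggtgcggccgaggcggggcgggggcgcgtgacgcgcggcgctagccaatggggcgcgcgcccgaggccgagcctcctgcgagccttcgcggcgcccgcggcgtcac

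3 called genes act in mitochondria, 2 of them lowered and 1 raised. Rmnd1 (10:4401915-4432388), needed for translation of the mitochondrial genome, was at 32.0, 33.0 and 37.2 CPM in heterozygotes and at 26.4, 27.6 and 30.8 CPM in homozygotes. The groups did not overlap (log2 -0.25, SE 0.044, edgeR adjusted p = 0.0293), and Rmnd1 shares bases with Gm16153 on the other strand. Of 20 genes of mitochondrial translation Rmnd1 was the only one called, with Mrpl12 at -0.11, Gtpbp3 at -0.11 and a list median of -0.01.

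Acad8 (9:26974135-26999566), the isobutyryl-CoA dehydrogenase of valine breakdown, was at 16.6, 17.6 and 18.6 CPM in heterozygotes and at 13.8, 14.5 and 15.7 CPM in homozygotes, without overlap (log2 -0.25, SE 0.043). D2hgdh (1:93825240-93852348), which oxidises D-2-hydroxyglutarate, went the other way, from 8.11, 8.61 and 9.12 CPM to 9.63, 10.2 and 10.9 CPM. Its groups did not overlap either (log2 0.26, SE 0.045), and the edgeR adjusted p was 0.0293 for both genes. In the 35 genes of branched-chain amino acid and 2-hydroxyglutarate breakdown these were the only calls, and the median was -0.01. Mmaa, which serves the cobalamin-dependent end of valine breakdown, was at -0.14 and Ppm1k, the phosphatase that activates branched-chain ketoacid dehydrogenase, at 0.13. With the 3 olfactory-high libraries left out Rmnd1, Acad8 and D2hgdh were at -0.25, -0.24 and 0.25 (edgeR adjusted p = 0.115, 0.115 and 0.171).

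The other 3 raised genes are a secreted growth factor, a transcription factor and a matrix protein. Ptn (6:36715663-36811361), the heparin-binding factor pleiotrophin, which promotes neurite growth, was at 221, 239 and 250 CPM in heterozygotes and at 256, 264 and 279 CPM in homozygotes. The groups did not overlap (log2 0.16, SE 0.029, edgeR adjusted p = 0.0403). Ptn was the only gene called of 15 in the pleiotrophin and midkine pathway, whose median was 0.03. Its coreceptor Sdc4, the proteoglycan syndecan-4, was at -0.32 (SE 0.084, edgeR adjusted p = 0.214), with Sdc2 at 0.06 and nucleolin (Ncl) at 0.07.

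Sox4 (13:28948919-28953713), a transcription factor of progenitors and immature neurons, was at 15.7, 16.3 and 17.5 CPM in heterozygotes and at 17.2, 20.7 and 23.8 CPM in homozygotes. The ranges overlapped by homozygous replicate 7 alone, and the homozygotes varied more than the heterozygotes (log2 0.33, SE 0.061). Thsd4 (9:59966931-60522046), a matrix protein that binds fibrillin, was at 7.59, 8.20 and 10.1 CPM and at 9.34, 11.0 and 13.3 CPM, with overlap (log2 0.38, SE 0.072; edgeR adjusted p = 0.0403 for both). Thsd4 contains or meets Gm23668, Gm47676, 2010001M07Rik and Gm22099, and Sox4 meets Gm26735 on the other strand. Leaving out the 3 olfactory-high libraries put Ptn, Sox4 and Thsd4 at 0.14, 0.25 and 0.39 (edgeR adjusted p = 0.256, 0.256 and 0.215).

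Sox4 is 1 of 24 genes of subventricular neuroblasts and progenitors, a list chosen with earlier results of these data known. Of these genes 23 had positive differences, 1 was called and 12 were higher at an unadjusted p under 0.05 (4.47% of all genes). The list's median was 0.21, and it was 0.12 without the libraries of high olfactory bulb score and 0.12 with tissue scores as covariates. Its score lay between -0.80 and -0.33 in heterozygotes and between -0.39 and 0.98 in homozygotes. Igfbpl1, a neuroblast gene, was scarce at 0.113 to 0.359 CPM and 0.184 to 1.05 CPM (log2 1.36, SE 0.366, edgeR adjusted p = 0.215). Dlx6as1, an RNA antisense to the interneuron gene Dlx6, was at 0.26, and without known strand use its reads cannot be told from those of its partner.

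Genes of tissues beside frontal cortex were mostly higher in the homozygous libraries too. The median log2 difference was 0.95 over 13 olfactory bulb genes, 0.32 over 16 meningeal fibroblast genes, 0.32 over 14 ependymal genes and 0.36 over 10 choroid plexus genes, with none called. A few libraries carried much of the olfactory bulb, ependymal and choroid plexus medians. That of olfactory bulb was 0.15 without the libraries of high olfactory bulb score. Those of ependyma and choroid plexus were 0.05 and 0.02 without the libraries of high ependymal score. The meningeal median was 0.23 and 0.12 without these 2 sets of libraries. The second set holds heterozygous replicate 2, the library of lowest meningeal score (-1.46). Meningeal scores had a median of -0.76 in heterozygotes and 0.32 in homozygotes, with overlapping ranges. The summed levels were 161 to 222 CPM in heterozygotes and 165 to 294 CPM in homozygotes for olfactory bulb, 459 to 649 and 521 to 779 CPM for meninges, 42.2 to 52.6 and 42.0 to 66.8 CPM for ependyma, and 7.23 to 11.2 and 7.17 to 16.9 CPM for choroid plexus. Of these lists 12 of 13, 16 of 16, 14 of 14 and 8 of 10 members were positive. At an unadjusted p under 0.05, 9, 11, 1 and 2 members were higher and 0 lower (4.47% and 5.81% of all genes). Eomes, a transcription factor of olfactory mitral and tufted cells, was at 0.034, 0.15 and 0.607 CPM in heterozygotes and at 0, 0.649 and 8.66 CPM in homozygotes. The part of these tissues in the differences of Sox4 and the neuroblast genes was not tested, apart from the values given without the libraries concerned. Striatal genes had a median of -0.24, and heterozygous replicate 1 alone raised their heterozygous range to 674 to 1211 CPM, against 640 to 768 CPM in homozygotes. Without that library the striatal median was 0.041. Scn4b, at -0.26, is on both the striatal and the parvalbumin list.

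Astrocyte genes, which share Pygm's main cell type, gave 0 calls in 16 and a median of -0.08. At an unadjusted p under 0.05, 7 were lower and 1 higher (5.81% and 4.47% of all genes). The glycolytic enzyme Aldoc was at -0.17, the growth factor receptor Fgfr3 at -0.15, the folate enzyme Aldh1l1 at -0.16 and the transcription factor Sox9 at 0.21.

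Of 36 ALS and FTD genes none was called and the median was -0.01. At an unadjusted p under 0.05, 2 were higher and 4 lower (4.47% and 5.81% of all genes). The vesicle-associated gene Vapb was at -0.09, the nuclear matrix gene Matr3 at 0.12 and the mitochondrial gene Chchd10 at -0.11. Of 30 TDP-43 target genes none was called and the median was -0.02, and of 56 splicing factor and hnRNP genes none was called and the median was 0.0035.

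Nefh, the heavy neurofilament subunit, was the TDP-43 target of smallest p, at 73.9, 85.8 and 91.0 CPM in heterozygotes and 70.6, 73.7 and 79.7 CPM in homozygotes. The ranges overlapped and it was not called (log2 -0.18, SE 0.041, edgeR adjusted p = 0.109). The neuronal adhesion gene Nlgn1 was at 0.15, the channel-interacting gene Kcnip2 at -0.08 and the RNA-editing enzyme gene Adarb1 at -0.06. Genes of at least 100 kb, the class that TDP-43 is known to sustain, had a median of 0.02 over 2278 genes, with 1 called (Thsd4, raised). Of these long genes 1427 had positive and 851 negative differences, against 8208 and 8307 of all 16515 genes tested. At an unadjusted p under 0.05, 164 of the 2278 were higher and 71 lower, where all genes tested gave 739 higher (4.47%) and 960 lower (5.81%). Shorter genes had a median of -0.0038 over 14237 genes, with 3 called raised and 12 called lowered and 575 higher and 889 lower.

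**Figure D5:**
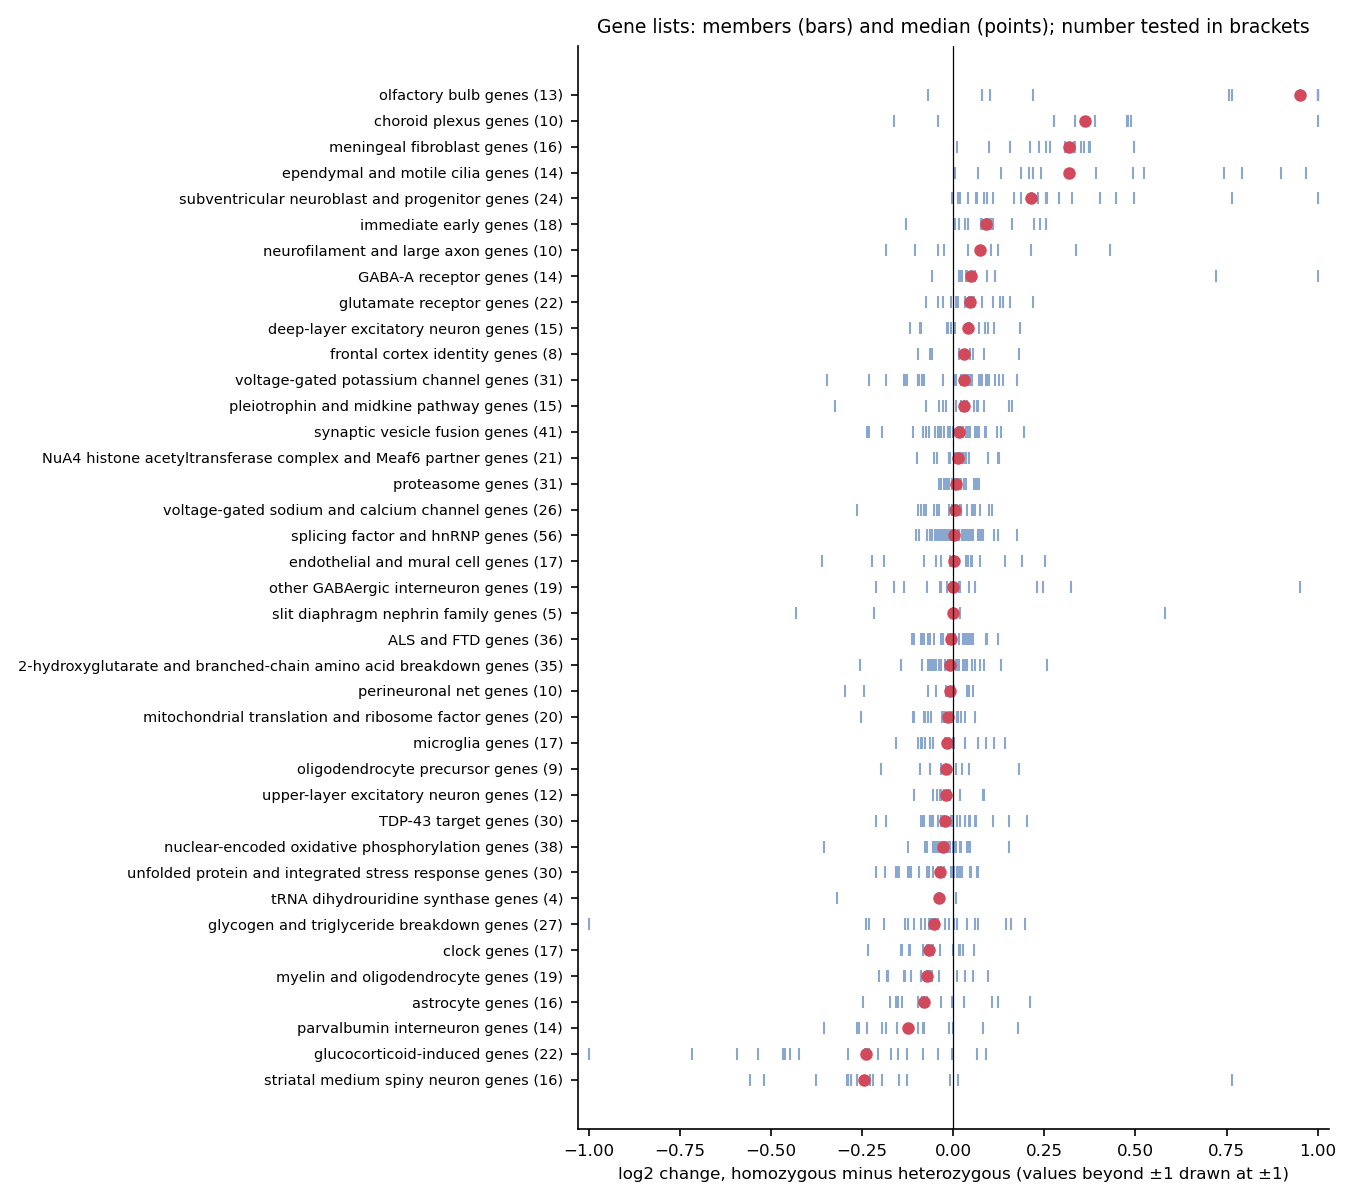
Log2 change (homozygous minus heterozygous, horizontal axis) of each member (blue bars) and the median (red point) of 39 gene lists, with the number of members tested in brackets. Lists of tissues beside frontal cortex stand highest, striatal, glucocorticoid-induced and parvalbumin interneuron genes stand lowest, and the TDP-43 target, ALS and FTD, and splicing lists lie near 0; the striatal median was 0.041 without heterozygous replicate 1.

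The genes next to the threshold extend both directions. On the raised side Col25a1, a transmembrane collagen, was at 45.6, 51.6 and 52.7 CPM in heterozygotes and 53.7, 59.4 and 67.7 CPM in homozygotes. Its groups did not overlap and it was just short of a call (log2 0.25, SE 0.048, edgeR adjusted p = 0.0525). Vat1l, a gene of deep-layer projection neurons, was at 0.21, the matrix glycoprotein tenascin C (Tnc) at 0.45, the receptor kinase gene Grk5 at 0.19 and the histone acetyltransferase subunit gene Meaf6 at 0.12. Meaf6 separated the groups, at 97.4 to 102 CPM and 103 to 115 CPM, while the 21 genes of its complexes had a median of 0.01 and no call. On the lowered side Sun2, a nuclear envelope protein, was at 42.1, 45.4 and 49.5 CPM and at 38.8, 40.6 and 42.0 CPM, without overlap (log2 -0.17, SE 0.036, edgeR adjusted p = 0.0797). The mitochondrial protease gene Afg3l1 was at -0.18, the metalloproteinase inhibitor gene Timp4 at -0.26 and the endothelial receptor gene Notch4 at -0.40.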

How the data were processed

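The authors deposited a table of raw counts per gene, with 25965 named rows over 20 libraries. Per the labels' protocols the libraries were made with a stranded kit for polyadenylated RNA. The tools and build that the submitters' processing notes list are HISAT2 2.0.5, Trim Galore 0.4.3 and GRCm38; how genes were counted, with which annotation and strand, is not given in the sources used here. Gene identifiers matched GENCODE M21 for 96.5% of 25909 genes. The 14 libraries were fitted with edgeR 4.0.16 (R 4.3.3): TMM scaling, filterByExpr, quasi-likelihood F test, Benjamini-Hochberg over 16515 genes. A gene was called at an adjusted p under 0.05. The standard error is the log2 difference divided by the square root of F. The script was tested on simulated data. No 2 libraries of a group agreed within sampling noise (43 pairs, smallest chi-square per degree of freedom 12.5).

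Alternatives were DESeq2 1.42.0, its size factors, other filters, all 20 libraries, a replicate block, limma 3.58.1 voom, sva 3.50.0, tissue scores as covariates (2 components) and each library left out; leaving out the libraries with an olfactory bulb or ependymal score above 0.5 was chosen after seeing the data. The members and lists (36, and 3 added later) were chosen with earlier results of these data known. Named were Tardbp, the called genes, the 6 nearest in each direction with a mean of at least 1 CPM, and, of each list described, its 4 genes of smallest p at most. Single genes of cholesterol synthesis and some other items are not reported here.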

Additional observations from a re-analysis of the deposited data

Results flagged for a closer look

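The levels of Tardbp, the called genes and the 12 nearest to a call, and the 39 list scores, were examined in each genotype, which made 136 groups of values. Of these groups 6 had a library whose gap to its nearest neighbour took an unusually large share of the group's range; chance gives this in about 1 in 20 groups. Heterozygous replicate 4 had the lowest Tardbp level (216 CPM, share 0.724) and the highest TDP-43 target score (0.63, share 0.731) of its group. Heterozygous replicate 6 had the highest Rmnd1 level of its group (37.2 CPM, share 0.668), and homozygous replicate 5 the lowest Afg3l1 level (16.0 CPM, share 0.564). Heterozygous replicate 1 had the highest striatal score (2.56, share 0.701), and heterozygous replicate 3 the lowest neuroblast score (-0.80, share 0.662).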

How the results depend on the processing

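Against 4 raised and 12 lowered genes, DESeq2 gave 35 and 85, limma voom 7 raised, 2 surrogate variables 39 lowered, and tissue scores as covariates 0 and 1. Without the libraries of high olfactory bulb score the counts were 0 and 2, and without those of high ependymal score 0 raised. Leaving out single libraries gave 0 to 7 raised, 4 to 19 lowered, and 53 to 133 genes whose groups do not overlap (49 with all). The number of genes without overlap was 136 without the olfactory-high and 347 without the ependymal-high libraries. These fits hold fewer libraries, so their counts are not on the same footing as 49. Blocking on the replicate number gave 11 raised and 41 lowered genes. Same-numbered libraries correlated between -0.08 and 0.07 over 6 pairs, and none matched its own number best. Whether the numbers mark a shared batch was not tested beyond these correlations. The tissue covariates kept the call of 4933439F18Rik alone. The cause of these shifts in counts was not tested. With those covariates Calb2 (-0.021), Eomes (-0.79), Kirrel3 (-0.0050), Sdc2 (-0.012) and Spp1 (-0.047) turned negative. Dus4l, at 0.0067, ran from -0.043 to 0.050 over single libraries left out, with -0.043, -0.029, -0.032 and -0.0033 without heterozygous replicate 3 or 5 or homozygous replicate 4 or 6. Depth limits scarce genes most, such as Pnldc1 and Igfbpl1.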

Other observations

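Lists of other cell types of the cortex gave no call. Myelin and oligodendrocyte genes had no call and no member at an unadjusted p under 0.05 among 19, with a median log2 difference of -0.07, which became -0.15 on leaving out the ependymal-high libraries and 0.0027 on leaving out heterozygous replicate 2. The medians of 17 microglia genes, 12 upper-layer and 15 deep-layer excitatory neuron genes were -0.02, -0.02 and 0.04, with no call by edgeR. The 31 proteasome genes lay between -0.04 and 0.07, the narrowest span of these lists, and none reached an unadjusted p under 0.05. The 38 nuclear-encoded genes of oxidative phosphorylation had 29 negative members and a median of -0.03, and the 30 genes of the unfolded protein and integrated stress responses 20 negative members and a median of -0.04. Of 18 immediate early genes 17 were positive with a median of 0.09, which was -0.03 without the libraries of high olfactory bulb score and -0.06 with tissue scores as covariates.

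Receptor genes for the main transmitters leaned upwards without a call. Of 22 glutamate receptor genes 18 were positive with a median of 0.05, and of 14 GABA-A receptor genes 13 were positive with a median of 0.05; each median kept its sign in all 25 alternatives.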
